A study of Homo sapiens with 10 samples.

Results

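Glycolysis and hypoxia-induced genes form a set of 35 genes, 22 of them enzymes and transporters of glycolysis and 13 of them genes that low oxygen is known to induce or that control that response. A member was read from the probe sets that the array's annotation assigns to its gene alone, and 33 of the 35 members had at least 1 such probe set (71 probe sets in all). SLC16A3 and CA9 were not analysed here. Probe sets brighter than the array median on 3 or more arrays were tested. This held for 63 of the 71 probe sets and for all 33 genes, 21 glycolytic and 12 hypoxia-induced, out of 14116 genes tested. Each gene is described by its tested probe set that was brightest on average over the groups.

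RNA came from RWPE-1, an immortalised line of non-tumorigenic human prostate epithelium, hybridised to Affymetrix HG-U133 Plus 2.0 arrays. MSCV retroviruses had been used to introduce the genes, and stable clones were then selected and cultured under normal conditions. Control cells carried the bacterial biotin ligase BirA (3 arrays), and the other cells carried BirA with ETV1 (4 arrays) or with ERG (3 arrays), ETS transcription factors that gene fusions activate in prostate cancer. No label speaks of low oxygen. The design text gives 3 biological replicates while the labels give 4 ETV1 arrays, and nothing says that replicates were separately derived clones, so p-values measure how far these arrays vary, which may be technical. ETV1 rose in its cells, by 2.67 to 3.67 on the log2 scale on 3 of its 5 probe sets. The brightest ERG probe set read 186 in control and 9.43 on the arrays labelled ERG, while the dimmest read 9.04 and 36.5. ERG thus did not settle the label, and these are called the arrays labelled ERG throughout. In RNA from a whole culture, fewer cells of a kind and less RNA per cell cannot be told apart.

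Glycolysis breaks glucose down to pyruvate in the cytosol, and lactate dehydrogenase turns pyruvate into lactate or back. In low oxygen the transcription factor subunit HIF1A escapes degradation, because the prolyl hydroxylases that mark it need oxygen. It then binds short DNA motifs near its targets, which include most glycolytic enzymes, glucose transporters and genes of vessel growth and mitophagy. Many of the enzymes exist as several isoforms encoded by separate genes, and tissues differ in which isoform they use.

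As a whole, the 3 arrays labelled ERG differed from the other 7. The median probe set had an intensity of 50.7 ± 2.09 (SD, n = 3) on them, 72.5 ± 1.05 (n = 3) in control and 73.8 ± 2.01 (n = 4) in ETV1. The 3 prime to 5 prime ratio of the ACTB control probe sets, which rises where RNA is degraded or poorly labelled, was 2.94 ± 0.171, against 1.38 ± 0.0243 in control and 1.26 ± 0.0288 in ETV1. The GAPDH ratio did not differ in this way, at 1.005 ± 0.0516 on the arrays labelled ERG, 0.916 ± 0.0202 in control and 1.02 ± 0.0253 in ETV1. The 5 prime probe set of 18S ribosomal RNA read 79.4 to 159 in control, 276 to 874 in ETV1 and 834 to 1103 on the arrays labelled ERG. The 3 prime probe set of Cre, an array control that is not a human gene, read 11334 to 12007 in control and 11578 to 12802 in ETV1. On the arrays labelled ERG it read 21757 to 24245. The 3 prime GAPDH control probe set read 12659 ± 1082 in control, 12545 ± 878 in ETV1 and 27060 ± 1336 on the arrays labelled ERG. The basal and epithelial markers KRT5, KRT14, ITGA6, CDH1, EPCAM, KRT8 and KRT18 were above the array median on all 10 arrays. The summed intensity of the 4 epithelial markers was 13552 to 16947 in control, 9479 to 12463 in ETV1 and 19414 to 21168 on the arrays labelled ERG. That of the 3 measured basal markers was 17744 to 19127, 22336 to 23789 and 26425 to 26891. Single markers differed. On the arrays labelled ERG, KRT5 (log2 fold change 1.11), EPCAM (0.98) and KRT8 (1.04) were higher than in control. KRT14 (0.24), ITGA6 (0.12), KRT18 (0.21) and CDH1 (-0.1) did not pass. TP63 and CD68 were not analysed here. The summed intensity of the 3 endothelial markers was 1370 to 1562 in control, 1260 to 1397 in ETV1 and 169.7 to 193 on the arrays labelled ERG, nearly all of it from PECAM1. That of the 3 fibroblast markers was 921 to 1135, 1032 to 1065 and 197 to 262. That of the 2 leukocyte markers was 180.2 to 261, 189.7 to 219 and 36.8 to 78.1. Within these 3 lists the markers differed. CDH5, PTPRC and COL3A1 were above the array median on 0 arrays and VWF on 1, while PECAM1, COL1A1 and DCN were above it on all 10 and CD3E on 7. The part of these differences in the results was not tested. Precision is limited by the small number of arrays.

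The promoters of 30 of the 33 measured members were in the RefSeq table used (assembly GRCh38.p14), with 250 bases before and 50 after the annotated start. The core of the hypoxia response element, ACGTG or GCGTG on either strand, was in a promoter of 28 of these 30 genes (93.3%), against 52.4% of 27305 genes in the table. Counted per promoter, since genes with several starts have more chances, it was in 38 of 56 (67.9%) against 48.4% of 35116. The ETS core CCGGAA on either strand was in 9 of the 30 genes (30.0%) against 20.1% of all genes. PGAM1 and EGLN3 had no hypoxia core in the window. A match is a description of the letters, not of a bound site. The 250 bases before the start are printed below for 5 members on which the results turn. LDHB and PGK1 fell in ETV1 cells, ANKRD37 rose in both comparisons, and BNIP3 rose and PKM fell on the arrays labelled ERG. Each is written 5′ to 3′ on the gene's strand, with hypoxia cores in capitals.
PGK1 promoter: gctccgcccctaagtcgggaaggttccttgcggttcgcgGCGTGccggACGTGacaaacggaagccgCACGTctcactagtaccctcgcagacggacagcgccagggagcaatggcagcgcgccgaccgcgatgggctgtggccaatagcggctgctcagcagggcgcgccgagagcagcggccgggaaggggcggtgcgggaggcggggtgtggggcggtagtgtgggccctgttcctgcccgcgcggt
LDHB promoter: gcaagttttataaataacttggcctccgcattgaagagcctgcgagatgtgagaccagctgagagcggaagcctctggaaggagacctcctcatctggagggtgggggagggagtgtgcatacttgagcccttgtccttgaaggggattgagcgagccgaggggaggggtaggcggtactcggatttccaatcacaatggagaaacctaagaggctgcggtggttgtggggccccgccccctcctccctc
PKM promoter: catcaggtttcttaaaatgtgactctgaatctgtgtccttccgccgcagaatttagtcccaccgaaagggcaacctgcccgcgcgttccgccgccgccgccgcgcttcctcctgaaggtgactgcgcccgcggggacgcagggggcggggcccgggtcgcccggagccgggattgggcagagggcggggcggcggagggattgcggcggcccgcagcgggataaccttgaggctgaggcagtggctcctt
ANKRD37 promoter: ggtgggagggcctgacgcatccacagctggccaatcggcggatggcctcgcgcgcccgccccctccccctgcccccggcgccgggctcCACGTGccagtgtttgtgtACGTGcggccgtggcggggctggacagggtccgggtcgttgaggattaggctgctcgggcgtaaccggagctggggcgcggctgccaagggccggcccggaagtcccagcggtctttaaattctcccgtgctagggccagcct
BNIP3 promoter: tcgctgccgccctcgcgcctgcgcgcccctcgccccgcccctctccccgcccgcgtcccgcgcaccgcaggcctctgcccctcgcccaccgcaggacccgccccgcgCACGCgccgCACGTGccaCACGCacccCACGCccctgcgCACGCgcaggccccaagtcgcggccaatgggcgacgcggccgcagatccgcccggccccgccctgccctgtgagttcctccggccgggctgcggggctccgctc
The PGK1 stretch is chrX:78103998-78104247 on the plus strand and holds 3 cores, 211, 202 and 183 bases before the start. The LDHB stretch, chr12:21657843-21658092 on the minus strand, and the PKM stretch, chr15:72231191-72231440 on the minus strand, hold 0, but both genes have 1 core in the 50 bases after the start, which are not printed. The ANKRD37 stretch is chr4:185396591-185396840 on the plus strand, with 3 cores and 1 ETS core that is left in lower case. The BNIP3 stretch is chr10:131981924-131982173 on the minus strand and holds 6 cores. In the ANKRD37 and BNIP3 stretches the letters CACGTG hold a core on each strand, and these overlapping cores were counted separately. Both stretches therefore show fewer separate capitalised sites than cores.

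Of 21 glycolytic genes 8 fell and 0 rose in ETV1 cells against control, while 13 did not pass. They were LDHB, TPI1, PFKFB4, ALDOC, PGK1, PFKL, ENO2 and PGAM1, and the falls were between 0.39 and 1.02 on the log2 scale. Over all 14116 genes 15.1% fell and 8.81% rose (23.9% either way) at a Benjamini-Hochberg adjusted p of 0.05 in limma, so the 38.1% of glycolytic genes that fell lay above the background share. The log2 fold change was negative for 19 of the 21, passing or not, with a median of -0.28 against -0.06 over all genes. Of 12 hypoxia-induced genes 1 rose and 1 fell, 8.33% each, with a median of 0.02. The epithelial markers EPCAM (-0.89, limma adjusted p = 0.00048) and KRT18 (-0.57) fell in the same comparison and the basal KRT14 rose (0.41). The epithelial CDH1 (-0.16) and KRT8 (0.06) and the basal KRT5 (0.17) and ITGA6 (0.26) did not pass. The 18S ribosomal RNA read higher on every ETV1 array. The part of these markers and of 18S in the falls was not tested. A change of at least 2-fold was seen in 1 glycolytic gene, LDHB, and in 3.73% of all genes.

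**Figure D1:**
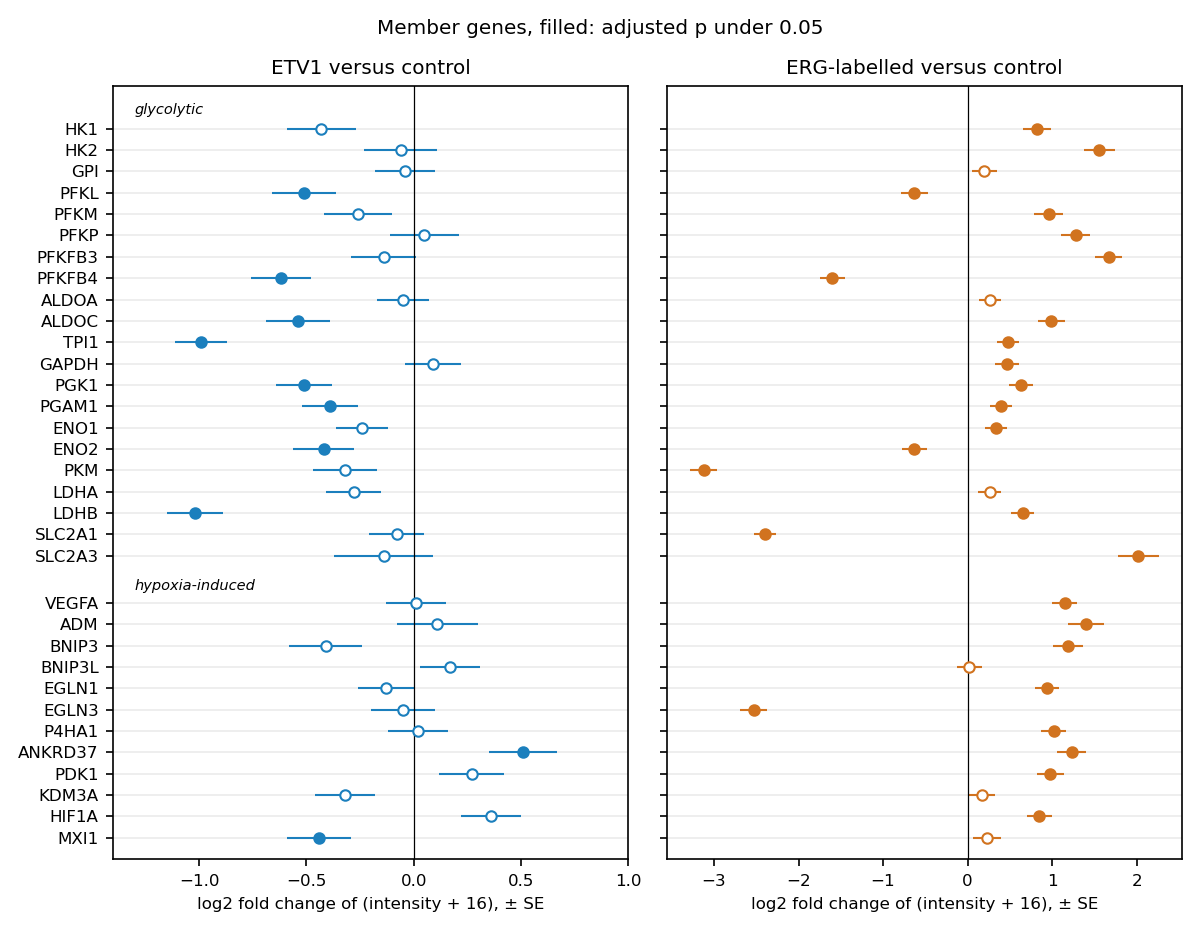
Log2 fold change of (intensity + 16) for the 33 measured members, ETV1 against control on the left and arrays labelled ERG against control on the right, on different axes, with bars of ± 1 standard error. Filled points passed an adjusted p of 0.05. On the left 8 glycolytic genes are filled below 0 and 0 above, and on the right filled points lie on both sides, from PKM at -3.12 to SLC2A3 at 2.02. The size of the EGLN3 fall on the right is not read, since EGLN3 was below the array median there.

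The final step, lactate dehydrogenase, held the largest fall. LDHB, the subunit that favours turning lactate back to pyruvate, read 8603, 8255 and 7328 on the control arrays and 3709.9, 4478, 4032 and 3675 on the ETV1 arrays. The groups do not overlap, and the log2 fold change was -1.02 (SE 0.13, limma adjusted p = 3.1e-05). The second LDHB probe set gave -0.95. LDHA, the subunit that favours lactate formation, read 9307, 8745 and 8443 against 6541, 7776, 7295 and 7573. Those groups do not overlap either, but the difference of -0.28 did not pass (limma adjusted p = 0.13).

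TPI1, the isomerase that joins the products of the aldolase step into a common path, read 6849, 6321 and 6049.9 on the control arrays and 3116, 3623, 3208 and 2958 on the ETV1 arrays. Every ETV1 array lay below every control array, with a log2 fold change of -0.99 (SE 0.12, limma adjusted p = 3.4e-05), and the other tested TPI1 probe set gave -1.04. PGK1, which makes the first ATP of the pathway's later steps, fell by 0.51 (SE 0.13, limma adjusted p = 0.0095), from 4476 ± 543 to 3126 ± 258. It was the member with most probe sets, and 4 of its 6 fell, by 0.45 to 0.62. PGAM1, the mutase that follows it, differed by -0.39 (limma adjusted p = 0.035). GAPDH, often taken as a constant reference gene, read 11419.7, 11853 and 13909.7 in control and 14245, 13054, 13730.2 and 11791 in ETV1. These arrays overlap, and the difference was 0.09 (limma adjusted p = 0.66).

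Among the regulators, PFKFB4, a bifunctional enzyme that sets the level of the main activator of phosphofructokinase, read 589, 469.5 and 452 in control and 322, 323, 315 and 321 in ETV1. All ETV1 arrays were lower, and the log2 fold change was -0.62 (SE 0.14, limma adjusted p = 0.0037). Its relative PFKFB3 did not pass, at -0.14. The liver-type phosphofructokinase PFKL fell by 0.51, from 944 ± 182 to 650.5 ± 38, and by 0.60 on its other probe set. The muscle-type PFKM (-0.26) and the platelet-type PFKP (0.05) did not pass.

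ALDOC, the brain-type aldolase, read 470.0, 388 and 289 in control and 253, 257, 238 and 267 in ETV1. The groups do not overlap although the control arrays spread widely, and the log2 fold change was -0.54 (SE 0.15, limma adjusted p = 0.018). ALDOA, the main aldolase of most tissues, read 8136, 8080.5 and 8019 against 7924, 8272, 7935 and 7061, which overlap, and differed by -0.05. ENO2, the neuronal enolase, differed by -0.42 (limma adjusted p = 0.034), at a mean of 72.2 on the ETV1 arrays, close to their median over all probe sets. At the entry to the pathway the transporters SLC2A1 (-0.08) and SLC2A3 (-0.14) and the hexokinases HK1 (-0.43, limma adjusted p = 0.065) and HK2 (-0.06) did not pass, nor did GPI (-0.04), ENO1 (-0.24) or PKM (-0.32).

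**Figure D2:**
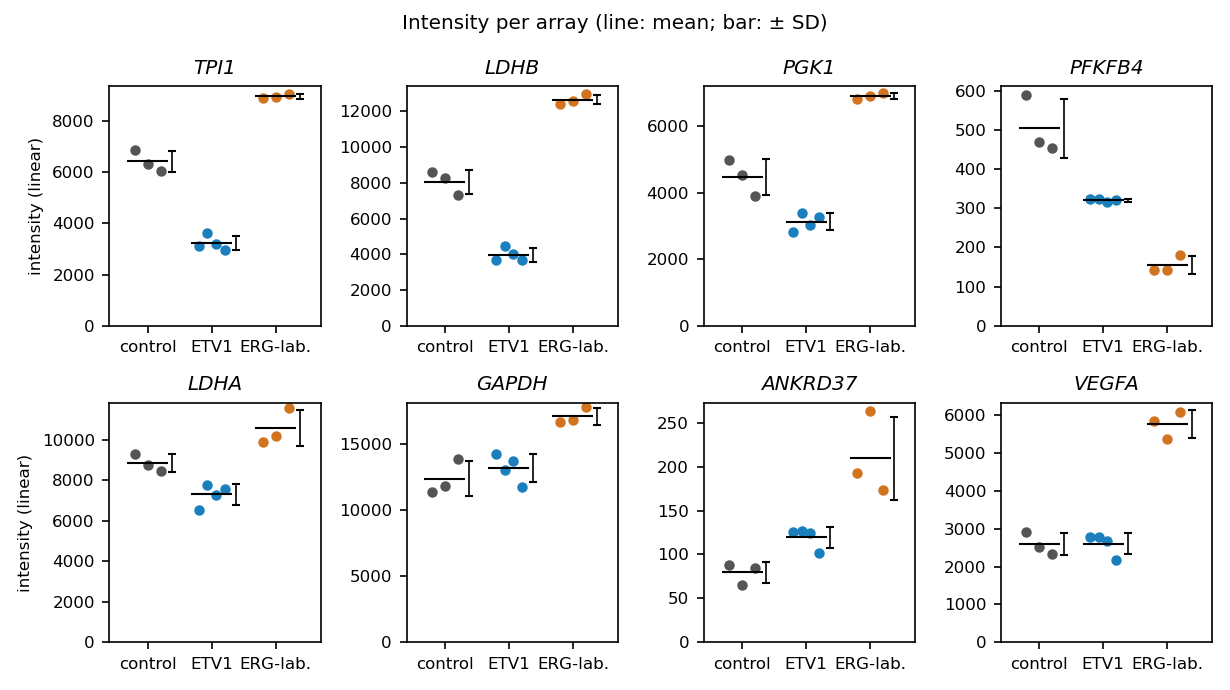
Linear intensity of 8 members on each array, with the group mean as a line and ± SD as a bar, for 3 control, 4 ETV1 and 3 arrays labelled ERG. TPI1, LDHB, PGK1 and PFKFB4 lie lower in ETV1 than in control on every array. GAPDH and VEGFA overlap between ETV1 and control, and ANKRD37 is higher in both other groups than in control.

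These ETV1 falls depended in part on single arrays. Without control replicate A 3 glycolytic genes passed (TPI1, LDHB and PFKFB4), without control replicate B 4 and without ETV1 replicate C 5. The background fell as well. Of all probe sets tested, 4212 of 25840, 4087 of 25833 and 4583 of 25845 passed in these fits, against 6102 of 25969 with every array. The share of all genes that fell in these fits was not counted, so an excess of glycolytic genes is not claimed for them. TPI1, LDHB and PFKFB4 passed with each array left out.

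Of the hypoxia-induced genes, ANKRD37, an ankyrin repeat protein induced by HIF, was the 1 that rose in ETV1 cells. It read 88.2, 65.5 and 85.0 in control and 126, 126, 125 and 102 in ETV1. All ETV1 arrays were above all control arrays, with a log2 fold change of 0.51 (SE 0.16, limma adjusted p = 0.025). The call was lost without control replicate B (0.40) and without ETV1 replicate A, B or C (0.49 each). MXI1, a repressor that competes with MYC for its partner MAX, read 1492, 1311 and 1044 against 845, 916, 869 and 1107, which overlap. Its log2 fold change was -0.44 (SE 0.15, limma adjusted p = 0.048), and the call was lost when control replicate A or B, or ETV1 replicate A, B or C, was left out. Quantile normalization also took the MXI1 call (-0.36).

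HIF1A itself read 5432, 4572 and 4223 in control and 6223, 6522, 5949 and 5594 in ETV1. These groups do not overlap, but the log2 fold change of 0.36 did not pass (SE 0.14, limma adjusted p = 0.078), though it did after quantile normalization at 0.53. The remaining 9 genes lay between -0.41 and 0.27. They include VEGFA, the main growth factor of vessels (0.01), PDK1, the kinase that shuts pyruvate out of the mitochondrial cycle (0.27), ADM, a vasodilator peptide (0.11), and P4HA1, a collagen prolyl hydroxylase (0.02). BNIP3, a mitophagy receptor, differed by -0.41 (limma adjusted p = 0.091). A single further probe set passed for VEGFA (0.46, limma adjusted p = 0.036) and for PDK1 (0.51, limma adjusted p = 0.043), neither of them the brightest of its gene.

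On the arrays labelled ERG, members of both groups rose and fell by larger amounts. Of 21 glycolytic genes 13 rose (61.9%) and 5 fell (23.8%), and of 12 hypoxia-induced genes 8 rose (66.7%) and 1 fell (8.33%). The background was high, since 79.5% of all genes passed, with 47.9% higher and 31.7% lower. The median log2 fold change was 0.47 over the glycolytic and 0.96 over the hypoxia-induced genes, against 0.31 over all genes. A change of at least 2-fold was seen in 7 of the 21 glycolytic and 6 of the 12 hypoxia-induced genes, and in 43.2% of all genes. This comparison uses the same control arrays as the ETV1 comparison.

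Scaling moved these counts. The median over all genes was 0.31 as deposited, 0.07 after quantile normalization and 0.71 with each array centred on its median. Among all genes that passed, 60.2% were higher as deposited, 53.4% after quantile normalization and 71.6% after centring. Glycolytic genes split into 13 higher and 5 lower as deposited, 6 and 7 after quantile normalization and 16 and 3 after centring. Hypoxia-induced genes split into 8 and 1, 7 and 3, and 11 and 1. Some members passed in the same direction under all 3 scalings. Glycolytic ones were ALDOC, HK2, PFKFB3, PFKM, PFKP and SLC2A3 (higher) and PFKFB4, PKM and SLC2A1 (lower). Hypoxia-induced ones were ADM, ANKRD37, BNIP3, EGLN1, P4HA1, PDK1 and VEGFA (higher) and the dim EGLN3 (lower). The share of all genes that did so was not counted. Of all genes 47.9% were higher as deposited, 40.1% after quantile normalization and 60.8% after centring, and 31.7%, 35% and 24.1% were lower. TPI1, GAPDH, PGAM1 and ENO1, which rose by 0.34 to 0.48 as deposited, had values between -0.15 and -0.07 after quantile normalization. HK1, LDHB, PGK1 and HIF1A did not pass after it either (0.19, 0.19, 0.04 and 0.28), and PFKL and ENO2 did not pass after centring (-0.22 each).

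At the entry to the pathway the glucose transporters went opposite ways. SLC2A1, the basal transporter of most cells, read 2519, 2282 and 2109 in control and 398, 459.8 and 413 on the arrays labelled ERG. Its groups do not overlap, with a log2 fold change of -2.40 (SE 0.13, limma adjusted p = 2.7e-10), but its second, dim probe set gave 0.33 (limma adjusted p = 0.11). SLC2A3, a high-affinity transporter, read 151, 115 and 139 against 519, 488 and 827. It was higher on every array labelled ERG, with a log2 fold change of 2.02 (SE 0.24, limma adjusted p = 1.3e-06). Its other probe sets gave 0.15, which did not pass, and 0.39 (limma adjusted p = 0.048).

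HK2, the inducible hexokinase, read 841, 659.7 and 617 in control and 1626, 2006 and 2821 on the arrays labelled ERG. The groups do not overlap (log2 fold change 1.56, SE 0.18, limma adjusted p = 9.4e-07). A second HK2 probe set also gave 1.56 and the remaining one 0.12, which did not pass. HK1, the constitutive hexokinase, read 3082, 2842 and 2163 against 4168, 4336 and 5776. It too was higher on every array labelled ERG, by 0.82 (SE 0.17, limma adjusted p = 4.1e-04).

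The phosphofructokinase step changed unevenly between isoforms. PFKP went from 1586 ± 288 to 3848 ± 443, a log2 fold change of 1.28 (SE 0.17, limma adjusted p = 3.1e-06). PFKM went from 772 ± 137 to 1514 ± 206 (0.96, SE 0.17), while PFKL fell from 944 ± 182 to 599 ± 81.8 (-0.63, SE 0.16). PFKFB3 read 355, 309 and 255 in control and 864, 954 and 1216 on the arrays labelled ERG, and PFKFB4 589, 469.5 and 452 against 144, 141 and 181. Neither pair of groups overlaps, and the log2 fold changes were 1.67 (SE 0.16, limma adjusted p = 9.7e-08) and -1.60 (SE 0.15, limma adjusted p = 5.7e-08).

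In the later steps, the largest change of any member was that of PKM, the pyruvate kinase of most tissues and tumours. PKM read 9145, 8999 and 8708 in control and 1289, 985 and 827 on the arrays labelled ERG. The log2 fold change was -3.12 (SE 0.16, limma adjusted p = 1.1e-10), and -0.90 on a second probe set. ENO2, an isoform of the enolase that acts just before it, fell by 0.63. LDHB rose by 0.65, from 8062 ± 659 to 12656 ± 272, and ALDOC by 0.99, from 382 ± 90.4 to 767 ± 81.2. PGK1 rose by 0.63, but the mean of its probe sets, dim ones included, gave -0.50. TPI1 rose by 0.48 as deposited and was at -0.08 after quantile normalization. LDHA (0.26), ALDOA (0.26) and GPI (0.20) did not pass.

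Among the hypoxia-induced genes EGLN3, an oxygen-sensing prolyl hydroxylase, was the 1 that fell. It read 137, 154 and 196 in control and 9.0, 19.6 and 16.4 on the arrays labelled ERG. It entered the test only through its control and ETV1 arrays and lay below the array median on all 3 arrays labelled ERG. The fall is counted above, but for this reason no p-value or single fold is given. Its log2 fold change ran from -1.51 to -3.40 over the alternatives. A second EGLN3 probe set, too dim to be tested, read 2.64 ± 0.645 and 36.2 ± 11.2, the opposite direction. EGLN1, the main oxygen sensor that marks HIF1A for degradation, read 447, 408 and 338 against 800.1, 755 and 767. It was higher on every array labelled ERG, by 0.94 (SE 0.14, limma adjusted p = 1.2e-05), while its 2 other tested probe sets gave -0.13 and -0.15 and did not pass.

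VEGFA read 2905, 2510.0 and 2340.3 in control and 5843, 5358 and 6081 on the arrays labelled ERG. The groups are far apart on this probe set (log2 fold change 1.15, SE 0.15, limma adjusted p = 2.3e-06), and its others gave 0.65, -0.35 and -1.59. ADM read 629, 604 and 441 against 1073, 1765 and 1709, a log2 fold change of 1.40 (SE 0.21, limma adjusted p = 1.3e-05). P4HA1 read 587, 556 and 437 against 978, 1104 and 1157, a log2 fold change of 1.02 (SE 0.15, limma adjusted p = 1.5e-05). For both genes every array labelled ERG lay above every control array.

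The mitophagy receptors differed from each other. BNIP3 read 1756, 1525 and 1134 in control and 3281, 3645 and 3081 on the arrays labelled ERG, which do not overlap. The log2 fold change was 1.19 (SE 0.18, limma adjusted p = 1.5e-05), and 1.06 on its second probe set. BNIP3L, its close relative, read 729, 653 and 539.8 against 654, 705 and 578. These overlap, and its difference was 0.02 (SE 0.15, limma adjusted p = 0.92), with -0.02 on the second probe set. ANKRD37 read 193, 263 and 173, above every control and ETV1 array, a log2 fold change of 1.23 against control (SE 0.17, limma adjusted p = 4.6e-06). HIF1A rose by 0.85 and PDK1 by 0.98, while KDM3A, a histone demethylase (0.17), and MXI1 (0.23) did not pass.

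How well the probe sets of a gene agreed differed between the comparisons. In ETV1 against control, 4 members had at least 2 passing probe sets (LDHB, PFKL, PGK1 and TPI1), and in all 4 these went the same way, as they did in 96% of 1147 such genes on the array. In the other comparison with control 12 members had them. They went the same way in 8 (BNIP3, GAPDH, HK2, LDHB, PFKL, PKM, SLC2A3 and TPI1) and opposite ways in ENO1, PDK1, PGK1 and VEGFA. Over the whole array they went the same way in 49.7% of 4989 such genes. PGK1 shows the spread, with probe sets at 0.63, 0.51, -0.65 and -0.95 in that comparison. Its dimmest ones, at means of 38.7 and 26.0 on the arrays labelled ERG, also fell and are given no fold. ENO1 and PDK1 went opposite ways only through probe sets reading 10.2 to 26.6 and 33.3 to 58.3 there. A probe set tested mainly through the other arrays tends to fall on these, and its part in the 49.7% was not counted. At the level of probe sets, 23.5% of those tested passed in ETV1 against control, 78.4% on the arrays labelled ERG against control and 82.1% between the latter and ETV1. A direction drawn from 1 probe set on the arrays labelled ERG carries this limit.

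**Figure D3:**
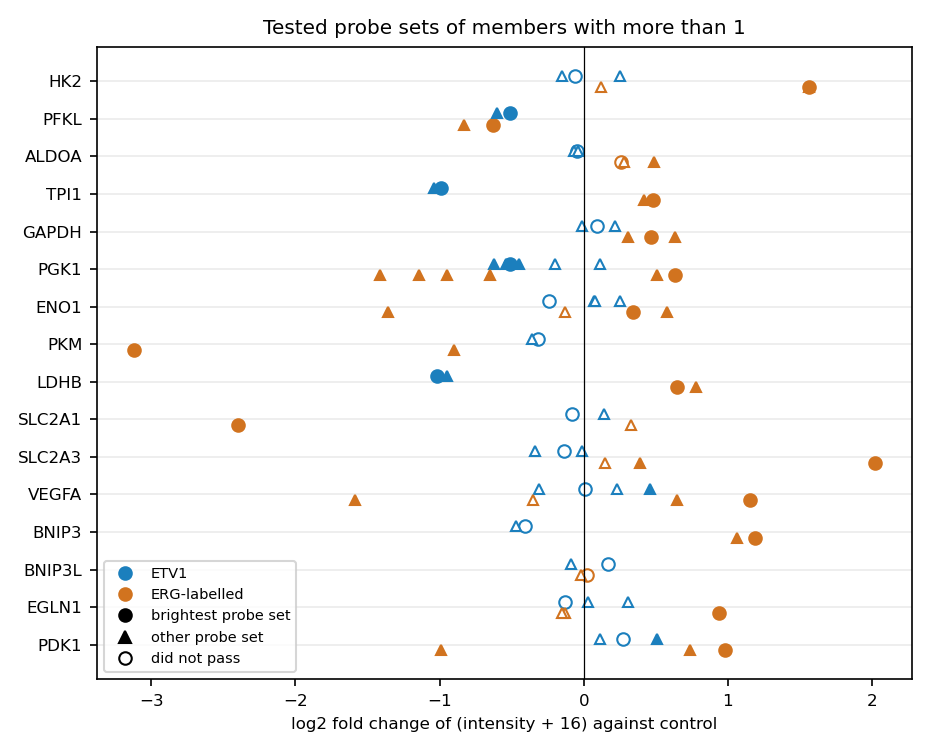
Log2 fold change against control for every tested probe set of the members with more than 1, ETV1 in blue and arrays labelled ERG in orange, with circles for the brightest probe set, triangles for the others and open symbols where the test was not passed. The blue symbols of LDHB, TPI1 and PFKL lie close together below 0. The orange symbols of PGK1, VEGFA, ENO1 and PDK1 lie on both sides of 0. The lowest ones of PGK1 and ENO1 come from dim probe sets.

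Related genes were compared within each array as a log2 ratio, which takes out a scaling common to the whole array, and only the difference of this ratio from control is given. With 33 such comparisons over 11 pairs, none passed 0.05 after Benjamini-Hochberg adjustment, and the smallest adjusted p was 0.08. In ETV1 cells LDHB shifted against LDHA by -0.74, PFKP against PFKL by 0.56, and PFKFB3 against PFKFB4 by 0.48. For each of these the arrays did not overlap, with p = 0.029 in an exact permutation test (two-sided), which is as low as 4 against 3 arrays can reach. On the arrays labelled ERG all 11 ratios lay apart from control. The exact permutation p was 0.1 for each, as low as 3 against 3 arrays can reach. For EGLN1 against EGLN3 the separation is not read, since EGLN3 was tested only through the other arrays. How often other pairs of genes lay apart was not counted. Of all genes 79.5% passed in that comparison, so the separation is not read as particular to these pairs. SLC2A3 shifted against SLC2A1 by 4.42 and PFKFB3 against PFKFB4 by 3.27. No shift is given for EGLN1 against EGLN3, which was dim on the arrays labelled ERG. PFKP and PFKM shifted against PFKL by 1.91 and 1.60, BNIP3 against BNIP3L by 1.17 and HK2 against HK1 by 0.74. LDHB shifted against LDHA by 0.40, the other direction from ETV1 cells. The shift of ENO2 against ENO1, -0.97, was -0.09 after quantile normalization.

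**Figure D4:**
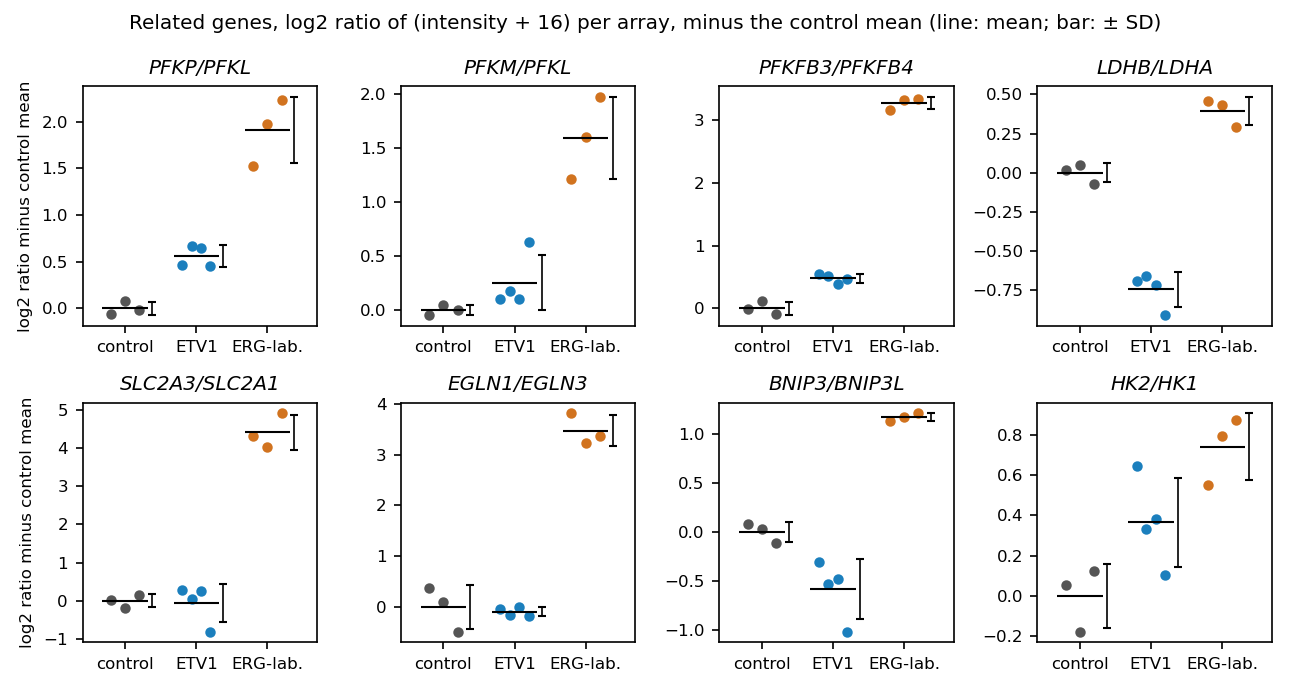
Log2 ratio of related genes on each array, minus the control mean, with the group mean as a line and ± SD as a bar, for 3 control, 4 ETV1 and 3 arrays labelled ERG. Each panel has its own axis. The EGLN1 to EGLN3 panel is not read for the arrays labelled ERG, where EGLN3 was dim. The LDHB to LDHA ratio is lower in ETV1 (-0.74) and higher on the arrays labelled ERG (0.40) than in control, and the SLC2A3 to SLC2A1 ratio is higher on the arrays labelled ERG by 4.42.

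Between the arrays labelled ERG and the ETV1 arrays, 15 glycolytic genes were higher and 3 lower on the arrays labelled ERG, and 10 hypoxia-induced genes were higher and 1 lower. In that comparison 83.2% of all genes passed, 50.6% higher and 32.7% lower. The largest differences on the higher side were SLC2A3 (2.16), PFKFB3 (1.81), LDHB (1.67) and HK2 (1.62). Those on the lower side were PKM (-2.79) and SLC2A1 (-2.32), beside EGLN3, which is left without a fold because it was dim. TPI1 differed by 1.47 and PGK1 by 1.14. At least 2-fold differences were found in 12 of 21 glycolytic and 5 of 12 hypoxia-induced genes, and in 49.6% of all genes. Higher under all 3 scalings were 10 glycolytic genes, TPI1, LDHB and PGK1 among them, and 7 hypoxia-induced genes. The share of all genes higher under all 3 was not counted, so these counts have no background. Under each alone it was 50.6% as deposited, 43.3% after quantile normalization and 62.2% after centring.

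The surrounding pathway was read from 3 further lists. Of 20 tested genes of pyruvate handling and side branches, 3 rose (15%) and 5 fell (25%) in ETV1 cells, against 8.81% and 15.1% of all genes. PGM1, which links glycogen to glycolysis, went from 484 ± 65.5 to 858 ± 34.9, a rise of 0.81 on the log2 scale (SE 0.13, limma adjusted p = 3.5e-04), and PDP1, which reactivates pyruvate dehydrogenase, by 0.55 (limma adjusted p = 0.036). MPC2, a subunit of the mitochondrial pyruvate carrier, fell by 0.83, and PDK3, a pyruvate dehydrogenase kinase, by 0.73. In the other comparison, of arrays labelled ERG with control, 10 rose (50%) and 7 fell (35%), near the 47.9% and 31.7% of all genes. PGM1 (1.65) and BPGM, which makes the red cell regulator bisphosphoglycerate (1.40), rose most. FBP1, a gluconeogenic phosphatase that opposes phosphofructokinase, and PFKFB1 fell, to 26.2 to 35.8 and 20.5 to 37. These values lay below the array median, where the size and order of falls depend on the pseudocount. Both genes entered the test only through the other arrays, so they are counted but given no fold.

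Of 12 tested genes of the HIF machinery, 1 rose (8.33%) and 4 fell (33.3%) in ETV1 cells, against 8.81% and 15.1% of all genes. The coactivator EP300 rose by 0.82 (SE 0.17, limma adjusted p = 0.0021), and its relative CREBBP fell by 0.59. The inhibitory HIF subunit HIF3A read 75.1 to 82.6 in control, 42.6 to 64.2 in ETV1 and 21.6 to 23.4 on the arrays labelled ERG. It was tested only through its control arrays, so no fold is given, though it is counted among those that fell. For the arrays labelled ERG the counts were 6 (50%) and 4 (33.3%), near the background of 47.9% and 31.7%, with ELOC, a subunit of the ligase that degrades HIF1A, at 1.39 and EP300 at 1.36. VHL, which recruits HIF1A to that ligase, was at -0.80. Of 23 other hypoxia targets 6 rose and 4 fell in ETV1 cells. BHLHE40, a circadian repressor, rose from 527 ± 102 to 2061 ± 173 (log2 fold change 1.95, SE 0.17, limma adjusted p = 1e-06) and CA12, a surface carbonic anhydrase, by 1.61. TFRC, the transferrin receptor, fell by 1.46 and PLOD1, a collagen lysyl hydroxylase, by 0.83. On the arrays labelled ERG 13 rose (56.5%) and 6 fell (26.1%), against 47.9% and 31.7% of all genes. BHLHE40 (1.60) and FAM162A, a mitochondrial protein (1.45), rose. HMOX1, which degrades heme (-1.35), fell to a mean of 64.1, near the array median. LOXL2, a lysyl oxidase, fell to a mean of 32.2, below the median of every array labelled ERG. LOXL2 entered the test only through the other arrays, so it is counted but given no fold. In ETV1 cells 26.1% of these targets rose and 17.4% fell, against 8.81% and 15.1% of all genes.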

How the data were processed

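The authors deposited linear intensities, with 1 value for each probe set on each array. For their summarisation and normalization, no method was given in the sources used here. Per the labels' protocols, total RNA was extracted with Trizol and labelled as biotinylated cRNA. The intensities were used as deposited, and log2(intensity + 16) was tested, which understates changes of dim genes. Of 54675 probe sets, 41091 named 1 gene and were no controls, 1801 named several and 11721 none. Those above the array median on at least 3 arrays (25969) were tested with limma (lmFit and eBayes, two-sided) in a model fitted to 3 groups (7 residual degrees of freedom), with Benjamini-Hochberg adjustment over all of them at 0.05. A gene passed where its brightest tested probe set did. Symbols were checked against the RefSeq annotation, which updated 0 and left 54 unmatched.

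The members and lists were chosen with earlier results of these data known. All members are named, with values on each array for the up to 6 largest passing changes per group on the arrays labelled ERG, the up to 4 largest in ETV1 cells, and their relatives. Up to 2 genes per further list, comparison and direction are named, the largest passing changes. HIF1A, GAPDH and some means were added after their values were seen. Replicate letters were checked for pairing: same-letter deviations correlated between -0.0992 and 0.0872, so arrays were not paired. Alternatives tried were median centring, quantile normalization, no filter, pseudocounts of 1 and 64, only the groups compared, a replicate block, only transcript-specific probe sets (those whose design does not target several transcripts), means of probe sets, a fit over genes, eBayes with trend and robust, and leaving out each array. For the ratios of related genes, pseudocounts and quantile normalization were alternatives chosen after seeing the data. The code was tested on simulated data. Computation used limma 3.58.1 in R 4.3.3; promoters and plots were made in Python 3.11.15 with matplotlib 3.10.9 and pandas 2.3.3.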

Additional observations from a re-analysis of the deposited data

Results flagged for a closer look

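ETV1 replicate D lay far from the other 3 ETV1 arrays in 5 of 33 members, all of them hypoxia-induced, where the gap to the nearest array took up most of the group's range. VEGFA read 2180.4 there, against 2687 to 2778 on the others. ADM read 793, against 533 to 556. BNIP3 read 838, against 1167 to 1209. P4HA1 read 447, against 551 to 570.4. ANKRD37 read 102, against 125 to 126. Chance puts about 1 in 20 groups past this limit, and over all genes 6.94% were past it, 4.52% through replicate D. Replicate D lay outside the range of the other ETV1 arrays in 9 of 12 hypoxia-induced genes, 6 times below and 3 times above, and in 13 of 21 glycolytic genes, 9 times below and 4 above, which compares with 66.9% of all genes (37.2% below and 29.7% above). The 5 prime probe set of 18S ribosomal RNA read 276 on replicate D and up to 874 on the other ETV1 arrays, against 79.4 to 159 in control; its part was not tested.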

How the results depend on the processing

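None of the 10 member calls in ETV1 against control changed sign under any alternative that gave a value; transcript-specific probe sets gave none for TPI1, LDHB, PFKL and PGAM1. Passing glycolytic genes that were lower numbered 8 as reported, 4 with only transcript-specific probe sets (the other 4 had none) and 6 with the replicate block, which pairs arrays by letter; the letters did not pair the arrays, and the block took the calls of PGAM1 (-0.38) and ENO2 (-0.40). Leaving out each array gave 3 to 9 lower glycolytic genes, and 0 to 2 higher and 0 to 3 lower hypoxia-induced genes. Over the same fits 4087 to 7155 probe sets passed. Hypoxia-induced genes that were higher numbered 2 under quantile normalization, a pseudocount of 64, only the 2 groups compared, and eBayes with trend and robust, and 0 with no filter. The lower ones numbered 0 with no filter, a pseudocount of 1 or only transcript-specific probe sets. Under quantile normalization they numbered 1, but this was KDM3A (-0.27), while MXI1 lost its call (-0.36). Probe sets that passed in ETV1 against control numbered 6102 as reported, 3254 with transcript-specific probe sets, 3481 with means per gene and 3549 with a fit over genes, where fewer features were tested. The same 3 alternatives gave 12291, 10873 and 11292 (20359 as reported) for the arrays labelled ERG against control, and 12830, 11447 and 11816 (21333) against ETV1. On the arrays labelled ERG against control, quantile normalization left 6 higher glycolytic and 3 lower hypoxia-induced genes, and centring left 3 lower glycolytic genes. Transcript-specific probe sets, available for 10 glycolytic and 8 hypoxia-induced genes, left 5 higher and 0 lower respectively, and means per gene left 5 higher hypoxia-induced genes. Against ETV1, quantile normalization gave 6 lower glycolytic and 2 lower hypoxia-induced genes, and only transcript-specific probe sets gave 5 higher and 0 lower. Where a value passed in either setting, directions turned under quantile normalization against control for GPI (-0.37), ALDOA (-0.25), LDHA (-0.25), BNIP3L (-0.29), KDM3A (-0.24), PGAM1 (-0.15), ENO1 (-0.13), TPI1 (-0.08) and GAPDH (-0.07). Against ETV1 they turned for GPI (-0.48), ALDOA (-0.38), HIF1A (-0.24), LDHA (-0.12), GAPDH (-0.11) and ENO1 (-0.06). MXI1 against control (0.23 to -0.31) and ENO2 against ETV1 (-0.20 to 0.23) turned under quantile normalization without passing in either setting; under centring so did ENO2, PFKL (-0.12 to 0.31) and BNIP3L (-0.16 to 0.27) against ETV1. With only transcript-specific probe sets, ENO1 turned to -1.36 against control and -1.43 against ETV1, and SLC2A1 to 0.33 and 0.19. With means per gene, PGK1 (-0.50), ENO1 (-0.14) and VEGFA (-0.03) turned against control, and PGK1 (-0.13), ENO1 (-0.18), VEGFA (-0.13) and PDK1 (-0.05) against ETV1. The means of PGK1, ENO1 and PDK1 include dim probe sets. The cause of these changes was not tested. No count on the arrays labelled ERG moved by over 1.5 times when 1 array was left out. Dim probe sets close to background limit what can be read of EGLN3, FBP1, PFKFB1, LOXL2 and the second SLC2A1 probe set. The same holds for the transcript-specific ENO1 probe set and the dimmest PGK1 probe sets.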
